A study of Mus musculus with 107 samples.

Results

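Blood vessel density differed widely among 12 mouse tumor models, and the RNA of the densest models was compared here with that of the rest before any treatment. The study counted CD31-positive vessels by immunohistochemistry in treatment-naive tumors also used for sequencing and classed the top quartile of models as high in microvessel density (MVD). These are BNL 1ME A.7R.1 (BNL, a hepatocellular carcinoma), Renca (a renal cell carcinoma) and B16-F10 (a melanoma), called vessel-dense below. The other 9 models are RAG (renal cell carcinoma), 4T1 and EMT6 (breast), CT26.WT and MC38 (colorectal), LL/2 and KLN205 (lung), MBT2 (bladder) and Hepa 1-6 (hepatocellular carcinoma). The vessel-dense class holds 9 of the 35 treatment-naive tumors in 3 models, and the other class holds 26 tumors in 9 models, out of 107 tumors in the whole series. The class rests on staining and not on RNA, so no gene of the table was used to choose it.

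All lines grew under the skin of the flank in mice 7 weeks old, and treatment-naive tumors were taken at about 100 mm3. BNL, Renca, RAG, CT26.WT, 4T1 and EMT6 were grown in BALB/cAnNCrlCrlj mice, B16-F10 and MC38 in C57BL/6NCrl, LL/2 in C57BL/6JCrl, MBT2 in C3H/HeNCrl, KLN205 in DBA/2NCrl and Hepa 1-6 in C57L/J. Hosts of BNL and Hepa 1-6 were male and all others female, and the RAG cells had been adapted by growth in mice. A model is 1 cell line, so the class comparison has 3 lines against 9, and tumors of one line are not further replicates of the class. Host strain, sex and tumor type are partly tied to the class. Day 8 tumors of the same 12 models, 36 left untreated (NT) and 36 given the kinase inhibitor lenvatinib (LEN) at 10 mg/kg for 7 days, are placed beside the treatment-naive values.

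Vessels of a tumor are built by endothelial cells, which line the lumen, and are wrapped by pericytes and a basement membrane of laminins and type IV collagen. Sprouting is driven by vascular endothelial growth factor, made by tumor and stromal cells when oxygen is low and sensed by receptors on the endothelium. CD31, the protein stained by the study, is encoded by Pecam1 and is also carried by platelets and some leukocytes. In RNA of a whole tumor, fewer cells of a type and less RNA per cell cannot be told apart.

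RNA was measured by sequencing after depletion of ribosomal RNA. The values are in TPM, a measure of transcript abundance that is corrected for transcript length and sums to a fixed total in each tumor, so the depth behind a value is unknown. Differences are on the scale of log2(TPM + 1), vessel-dense minus other, with a model as the mean of its tumors and with standard errors from limma over the 12 model means. This scale understates the difference of genes with low TPM. Each of the 107 tumors was most similar to another tumor of its own model. Protein-coding genes took 47.3% to 58.7% of the TPM in the vessel-dense models and 38.9% to 58.8% in the others (two-sided exact permutation test over 220 choices of 3 of 12 models, p = 0.636), with overlapping ranges.

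Over all genes, no gene passed an adjusted p of 0.05 in treatment-naive tumors. The number called was 0 in each direction out of the 17542 genes whose mean TPM was 1 or more (0.0%), and the lowest adjusted p was 0.0627, for Aspg. An unadjusted p under 0.05 was reached by 728 genes higher in the vessel-dense models (4.15%) and by 327 lower (1.86%). For 95 genes all 3 vessel-dense model means lay above the 9 others (0.542%), and for 56 they lay below (0.319%). For each gene only 1 of the 220 choices of 3 of 12 models can lie wholly above, a fraction of 0.00455, and likewise below. An arbitrary choice of 3 models thus gives counts of about this size on average, so the counts alone do not mark this class. Of the 95 and 56 genes, 14 and 23 had a mean under 1 TPM in the lower class, so they were tested only through the class where they were high. The difference was above 0 for 56.3% of all genes, with a median of 0.05, which is the baseline against which the gene lists below are to be read. After rescaling by the upper quartile or over protein-coding genes that median was -0.02 and -0.01. The excess of genes on the higher side thus depends on scaling. In a list, a member is called higher or lower only by this test over all genes, so none was called, and lists are described by their counts and medians.

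The gene of the stained protein did not separate the classes. Pecam1 was at 30.8, 34.5 and 37.8 TPM in the BNL tumors, at 26.7, 37.2 and 29.8 in Renca, and at 12.8, 11.0 and 12.1 in B16-F10. The B16-F10 model mean was thus below all other 11 models, of which the 9 vessel-poor ones ran from 15.4 TPM in LL/2 to 34.2 in EMT6. The difference between classes was 0.16 ± 0.34 (SE, 12 models; exact permutation p = 0.646). Cdh5, the adhesion protein of endothelial junctions, showed the same order, with 29.8, 31.5 and 29.6 TPM in BNL, 25.8, 33.8 and 27.4 in Renca, but 11.7, 12.1 and 9.82 in B16-F10. Of the 9 other models, only RAG was lower for Cdh5, at 7.17 TPM. The class name therefore stands for CD31 staining, and for Pecam1 EMT6 was level with BNL and above Renca.

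Endoglin, Sparcl1 and plexin D1 behaved differently from Pecam1 and were at their highest or near it in B16-F10. Eng encodes endoglin, a co-receptor for TGF-beta family ligands on dividing endothelium, and was at 59.0, 67.7 and 57.3 TPM in BNL, 46.0, 60.0 and 52.6 in Renca, and 88.3, 91.0 and 83.5 in B16-F10. The other model means ran from 11.7 TPM in RAG to 43.7 in 4T1, so the model means did not overlap (difference 1.66 ± 0.36, adjusted p = 0.704). Plxnd1, a receptor for class 3 semaphorins that guides vessel growth, was at 71.2 to 109.0 TPM in the 9 vessel-dense tumors. All 26 other tumors were lower for Plxnd1, between 14.9 and 56.7 TPM, and the difference was 1.38 ± 0.23 (adjusted p = 0.446). Sparcl1, a matrix protein of the SPARC family, was at 78.7, 80.0 and 72.2 TPM in BNL, at 27.6, 35.5 and 27.5 in Renca and at 117.4, 112.6 and 107.8 in B16-F10. RAG, at 34.9 TPM, was above Renca for Sparcl1, so its model means overlapped (difference 1.78 ± 0.41, adjusted p = 0.704).

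The remaining genes of the study's 6-gene MVD score are endothelial receptors and a cadherin. Pcdh12, a protocadherin of endothelial junctions, had a difference of 0.91 ± 0.32, and Kdr, the main receptor for vascular endothelial growth factor, one of 0.88 ± 0.37. Tek, the angiopoietin receptor, had 0.56 ± 0.35, with B16-F10 tumors at 0.92, 0.74 and 1.27 TPM, near the lowest model mean of 0.735 in MC38. All 6 genes thus lay above 0 with a median of 0.90, and Eng, Sparcl1 and Pcdh12 entered the score by their correlation with CD31 on these samples, which makes their direction no independent evidence. In 4 of the 6 the B16-F10 mean was above the median of the 9 other models, against 6 of 6 for BNL and for Renca.

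**Figure D1:**
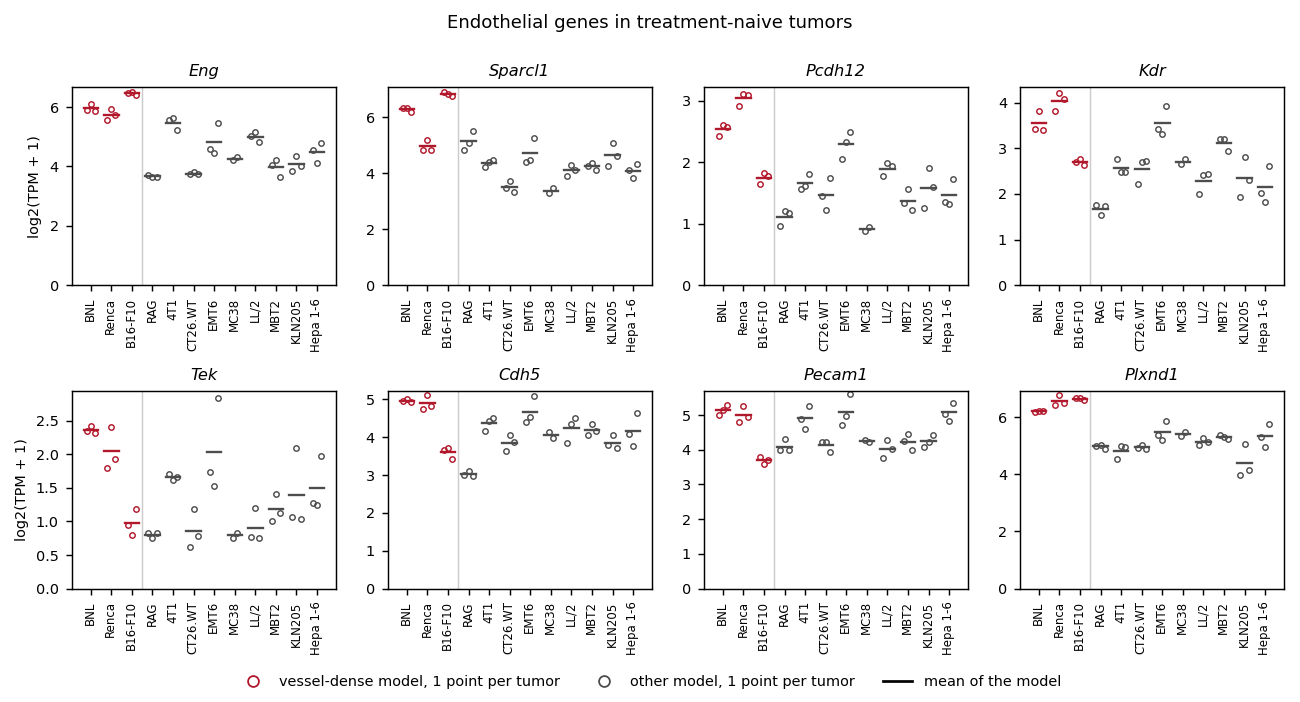
Each panel shows log2(TPM + 1) of 1 endothelial gene in every treatment-naive tumor of 12 models, with vessel-dense models in red, other models in grey, points for tumors and a line for the mean of the model. Eng and Plxnd1 keep the 3 vessel-dense means above all others, while Pecam1 is lowest in B16-F10.

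The 250 bases before the start of transcription are shown for Eng (chr2:32646345-32646594, plus strand) and Plxnd1 (chr6:115995006-115995255, minus strand; RefSeq, GRCm38.p6). Among the genes described as endothelial here, these had the clearest separation. Which cells of the tumor carried their RNA was not tested. Capitals mark GGAAG on either strand, the core that ETS factors of the endothelium can bind.

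Eng: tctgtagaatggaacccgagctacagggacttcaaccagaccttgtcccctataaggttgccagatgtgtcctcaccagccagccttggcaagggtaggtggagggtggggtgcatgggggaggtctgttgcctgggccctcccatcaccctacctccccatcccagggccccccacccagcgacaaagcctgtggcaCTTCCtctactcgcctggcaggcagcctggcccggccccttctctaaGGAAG

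Plxnd1: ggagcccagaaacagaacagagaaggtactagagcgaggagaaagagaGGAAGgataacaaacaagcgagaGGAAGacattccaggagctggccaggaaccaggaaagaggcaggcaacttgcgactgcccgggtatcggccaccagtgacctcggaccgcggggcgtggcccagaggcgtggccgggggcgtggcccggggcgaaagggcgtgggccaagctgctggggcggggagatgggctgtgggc

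GGAAG occurred 2 times in each of these stretches, and 64.1% of 32851 RefSeq promoter stretches of the same length held it at least once, so the matches are common and describe the letters only.

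Pan-endothelial genes were above the typical vessel-poor model in BNL and Renca and below it in B16-F10. Of 29 pan-endothelial genes tested, 24 were above 0 (all genes 56.3%), with a median difference of 0.48. The mean of these genes was 3.54 in BNL and 3.65 in Renca on the log2 scale, the highest pair of 12 models, though EMT6 reached 3.53. The B16-F10 mean was 2.69, ninth of 12. Gene by gene, 27 of 29 in BNL and 28 of 29 in Renca were above the median of the 9 other models, against 6 of 29 in B16-F10, where 13 were among the 3 lowest of 12 (all genes 47.3%, 59.5% and 54.1% above that median in BNL, Renca and B16-F10). Leaving out B16-F10 raised the median difference to 0.84, and leaving out Renca lowered it to 0.20. The list's smallest p after Eng went to Tal1, a transcription factor of blood and endothelial lineages, with 10.6, 10.7 and 12.6 TPM in Renca, 1.16, 1.03 and 1.62 in BNL and 1.59, 2.38 and 1.73 in B16-F10 (difference 1.37 ± 0.41). Thus the Tal1 difference came mostly from Renca, and EMT6, at 1.31 TPM, was level with BNL.

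Vessel subtype genes gave smaller medians. The arterial list had 7 of 11 genes above 0 (median 0.19), the venous and capillary list 9 of 18 (-0.08), the tip cell and sprouting list 11 of 18 (0.09) and the lymphatic list 3 of 5 (0.26). Arterial genes were above the median of the 9 other models for 10 of 11 in BNL, 8 in Renca and 2 in B16-F10. For venous and capillary genes BNL stood alone, with 15 of 18 above that median against 7 in Renca and 8 in B16-F10. Among venous and capillary genes, Ramp2, the partner of the adrenomedullin receptor, was at 258.4, 288.5 and 286.7 TPM in Renca, at 18.1, 22.8 and 15.95 in BNL and at 16.2, 20.0 and 16.4 in B16-F10. The highest of the others was EMT6 at 15.9 TPM, so the model means of Ramp2 did not overlap, but BNL and B16-F10 lay just above EMT6 and the size of the difference (2.38 ± 0.66) was set by Renca. Aplnr, the apelin receptor of venous and sprouting endothelium, was at 14.9 to 17.7 TPM in BNL and 13.1 to 19.1 in Renca, while B16-F10, at 4.08, 4.44 and 4.71, was below the 10.8 TPM of EMT6 (difference 1.60 ± 0.55). Fbln5, an elastic fiber protein on the arterial list, was at 69.6, 70.4 and 67.5 TPM in B16-F10 but at 2.01, 2.41 and 1.34 in Renca, below the 4.92 TPM of CT26.WT.

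Basement membrane and fibroblast genes were lowest in B16-F10 among the 12 models, and pericyte genes were uneven. The pericyte and smooth muscle list had 11 of 18 genes above 0 (median 0.11) and the vascular basement membrane list 9 of 14 (0.14). Pericyte and smooth muscle genes were above the median of the other models for 16 of 18 in Renca, 10 in BNL and 8 in B16-F10, and their mean level was higher in KLN205 (3.93) and EMT6 (3.72) than in Renca (3.45). Basement membrane genes were above the median of the other models for 12 of 14 in BNL and 12 of 14 in Renca, and for 2 of 14 in B16-F10. Lama4, the laminin chain of the endothelial basement membrane, went the other way, with 38.3, 35.8 and 35.5 TPM in B16-F10, 21.5, 21.8 and 20.1 in BNL, 19.1, 22.7 and 18.8 in Renca and up to 21.7 in Hepa 1-6 among the others (difference 1.00 ± 0.35). Fibroblast and interstitial matrix genes had a median of 0.12, which covers opposite extremes: 17 of 22 were among the 3 highest models in BNL, and 21 of 22 were among the 3 lowest in B16-F10. Their median turned to -0.24 in day 8 NT tumors, with 8 of 22 above 0, and to -0.29 in female hosts, but was 1.25 in BALB/c hosts. Fbln1, a matrix glycoprotein, had the smallest p of that list and was again uneven, with 103.6 to 129.1 TPM in Renca, 51.0 to 53.0 in B16-F10 and 2.31 to 4.04 in BNL.

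**Figure D2:**
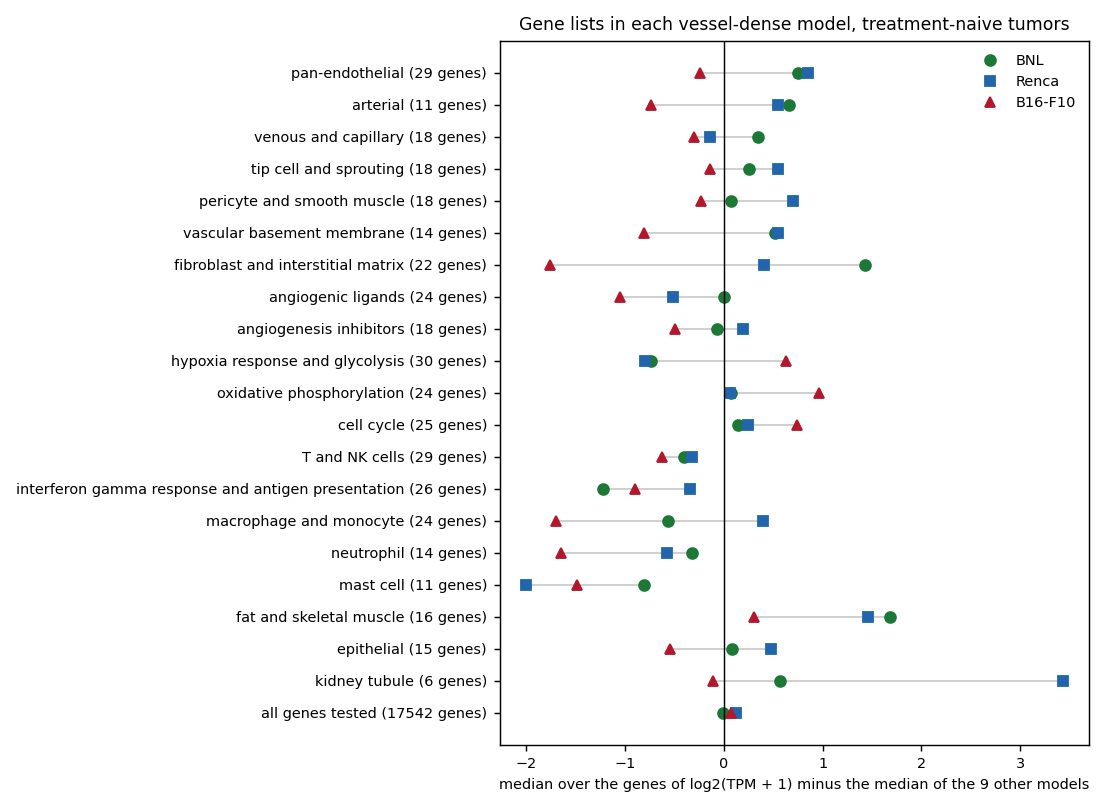
Each row is a gene list, and each point gives, for 1 vessel-dense model, the median over the genes of its log2(TPM + 1) minus the median of the 9 other models; the last row is all 17542 genes tested. B16-F10 lies apart from BNL and Renca for the pan-endothelial, arterial, basement membrane, fibroblast, hypoxia and oxidative phosphorylation lists, and all 3 lie below 0 for T and NK cells, interferon response, neutrophils and mast cells.

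The study's list of endothelial cell-related genes, taken from single cells of Hepa 1-6 tumors, split the 3 models as the pan-endothelial list did. Without the score genes, 207 of 341 members tested were above 0 (60.7% against 56.3% of all genes), with a median of 0.20. Members above the median of the other models numbered 258 in BNL, 236 in Renca and 130 in B16-F10. Of the 347 members that include the score genes, 5 did not overlap on the higher side, namely Eng, Plxnd1, Ramp2, Cxx1a and Cxx1b, and 3 did not on the lower side (all genes 0.542% and 0.319%). The lower ones, named after their values were seen, were Ly6c1, a surface antigen of endothelium and monocytes (-2.11 ± 0.90), Bmp2, a bone morphogenetic protein (-1.04 ± 0.43), and Mctp1 (-0.90 ± 0.30).

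Outside the vasculature, the gene that separated the classes most was Aspg, an asparaginase of low abundance. Its values were 2.44, 2.69 and 2.89 TPM in BNL, 5.19, 5.59 and 6.42 in Renca and 1.96, 2.55 and 2.14 in B16-F10. Every one of the 26 other tumors was at 0.4 TPM or less, and the highest other model mean was 0.365, in MC38. The difference was 1.92 ± 0.25 (adjusted p = 0.0627). Aspg lies at chr12:112106679-112127559 on the plus strand (GRCm38, GENCODE M21). Aspg passed the minimum mean TPM of 1 only through the vessel-dense tumors, and so did Odf3l1, Ankrd2, Trim63, Tal1, Klhl30 and Dct among the genes named here. Aspg was so close to this minimum that it had a value in only 9 fits without 1 model and 26 without 1 tumor. It fell under the minimum whenever a vessel-dense model or tumor was left out, so its difference could not be checked that way. On the lower side Tigit, Tpsb2 and Bmp2 passed it only through the other class. The Aspg adjusted p was 0.0192 with no minimum, 0.0316 after rescaling over protein-coding genes and 0.218 with a pseudocount of 0.1.

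The other 11 protein-coding genes with the smallest p among those that lay wholly above were Plxnd1, Ccdc141, Eng, Odf3l1, Ankrd2, Cxx1a, Hhipl1, Cxx1b, Csrnp2, Pianp and Trim63. Pianp, a neuronal membrane protein that binds the paired receptor PILRA, had the widest difference, 3.48 ± 0.86. It was at 62.2, 52.9 and 47.0 TPM in BNL, 75.4, 83.2 and 80.8 in Renca and 157.1, 176.6 and 193.4 in B16-F10, and no other tumor exceeded 38.4. Csrnp2, a nuclear protein, was at 6.56 to 9.07 TPM in BNL and Renca and at 30.9 to 31.9 in B16-F10, with all other tumors at 6.22 or below. Odf3l1 was at 0.53 to 16.1 TPM in the vessel-dense tumors and up to 0.51 in the rest, so its lowest vessel-dense and highest other tumors nearly met. Ccdc141 ranged from 7.53 to 22.6 TPM against a highest other model mean of 8.84 in Hepa 1-6, and 3 of the 26 other tumors were above its lowest vessel-dense tumor. Cxx1a and Cxx1b are near-identical neighbors on chromosome X whose reads cannot be assigned with certainty, and their differences of 1.21 and 1.19 are best taken as 1 signal.

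Ankrd2 and Trim63, also on this list, are genes of striated muscle. Ankrd2 was at 1.49 to 4.28 TPM in the vessel-dense tumors and up to 2.98 in the others, with 5 of 26 above its lowest vessel-dense tumor. Trim63, a ubiquitin ligase, was at 1.05 to 2.57 TPM in BNL and Renca but 24.5 to 25.0 in B16-F10. No other tumor exceeded 1.05 TPM for Trim63. Of 16 fat and skeletal muscle genes tested, 15 were above 0 with a median of 1.16, and 8 had an unadjusted p under 0.05. Their mean log2 level was 4.23 in BNL, 3.47 in Renca and 2.71 in B16-F10, against 1.49 to 3.63 in the others, with RAG at the top. The order of the models differed from that of Trim63, which was highest in B16-F10, and in RAG Trim63 had a mean of 0.91 TPM. Myh1, a fast myosin, was at 6.38 to 11.9 TPM in BNL, 7.44 to 12.4 in Renca and 6.19 to 8.93 in B16-F10, and its highest other model mean was 6.05, in MBT2 (difference 1.40 ± 0.43). Mylpf, a fast myosin light chain, had a difference of 1.76 ± 0.57. The part of muscle RNA in the Ankrd2 and Trim63 differences was not tested.

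**Figure D3:**
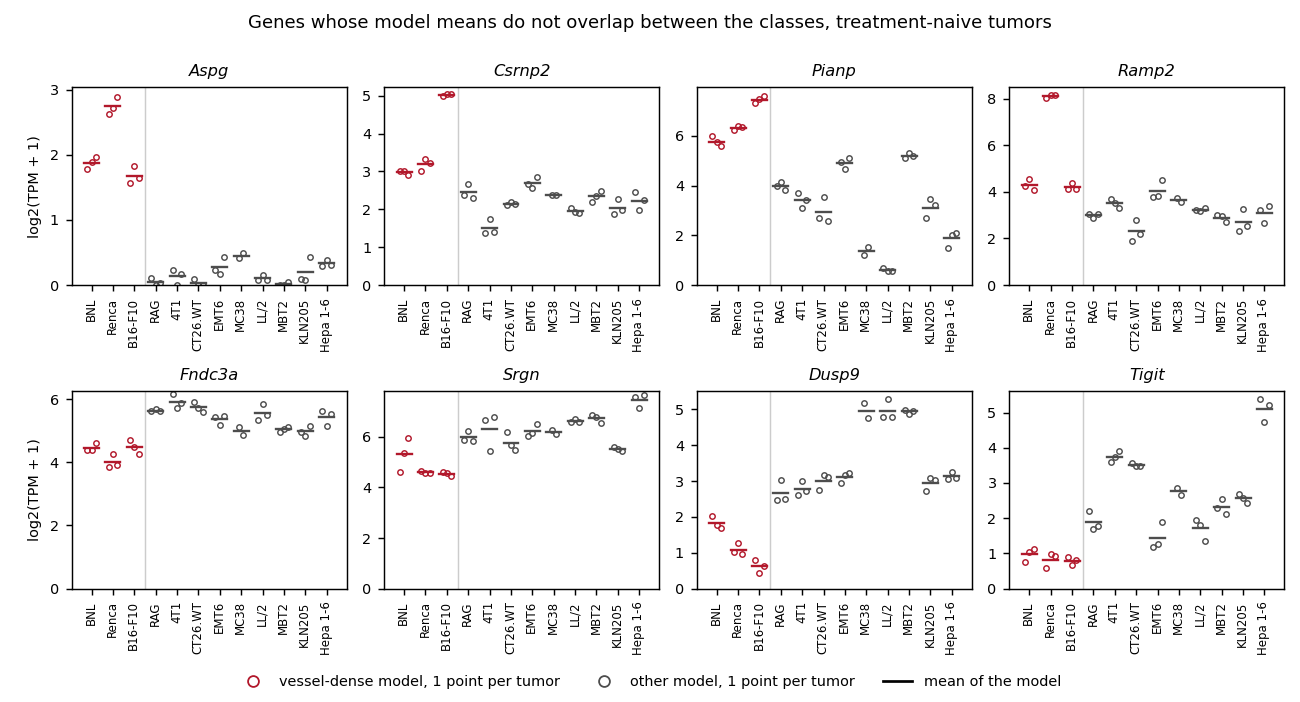
Each panel shows log2(TPM + 1) of 1 gene whose model means do not overlap between the classes, for every treatment-naive tumor, with a line for the mean of the model. Aspg, Csrnp2, Pianp and Ramp2 are higher, and Fndc3a, Srgn, Dusp9 and Tigit lower, in the 3 vessel-dense models in red.

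On the lower side the genes with the smallest p included Chd7, Fndc3a, Srgn, Dusp9, Lmbr1l, Rgs1, Garnl3, Trpm2, Ogt, Mcpt4 and Pafah1b3. Fndc3a, a fibronectin type III domain protein, was at 20.2, 19.8 and 23.4 TPM in BNL, 13.3, 18.1 and 14.1 in Renca and 25.0, 21.4 and 18.3 in B16-F10. No other tumor was below 27.7 TPM for Fndc3a (difference -1.09 ± 0.24, adjusted p = 0.704). Dusp9, a phosphatase of MAP kinases, was at 0.34 to 3.09 TPM in the vessel-dense tumors and at 4.51 to 37.8 in the others, and its difference was -2.43 ± 0.58. Lmbr1l likewise kept all single tumors apart, with 11.3 to 16.6 TPM against 17.6 to 41.6. Chd7, a chromatin remodeler, had a difference of -1.40 ± 0.30, with 1 of the 26 other tumors below the highest vessel-dense tumor.

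Several of the lower genes are expressed by leukocytes. Srgn encodes serglycin, the proteoglycan of leukocyte and mast cell granules, and was at 23.7, 40.8 and 61.0 TPM in BNL, 23.8, 23.1 and 23.0 in Renca and 23.7, 23.1 and 20.7 in B16-F10. The BNL tumors varied most, and 8 of 26 other tumors were below the highest of them, although the model means did not overlap (others from 45.03 in KLN205 to 178.8 in Hepa 1-6; difference -1.49 ± 0.35). Rgs1, a regulator of G protein signaling in lymphocytes, had a difference of -1.70 ± 0.41, and Trpm2, a calcium channel of myeloid cells, one of -1.82 ± 0.49. Mcpt4, a mast cell protease, was at 0.1 to 3.5 TPM in the vessel-dense tumors, and its other model means ran from 3.46 in EMT6 to 28.8 in MBT2. Mast cell genes were looked at as a list only after these values were seen. Of 11 tested, 10 were below 0 with a median of -1.82, and in Renca all 11 were among the 3 lowest models, with 9 in B16-F10 and 3 in BNL. Tpsb2, a mast cell tryptase, was at 0.94 to 2.14 TPM in BNL, at most 0.42 in Renca and 0.66 to 1.47 in B16-F10, against 2.17 in 4T1 to 38.3 in CT26.WT. Kitl, the ligand of the Kit receptor on which mast cells depend, was at 3.11 to 4.57 TPM in Renca and 3.0 to 4.02 in B16-F10, while BNL, at 22.02, 12.7 and 20.1, was above EMT6, at 13.4 (difference -2.22 ± 0.54).

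T cell, interferon and myeloid genes were mostly below 0 in treatment-naive tumors. All 29 T and NK cell genes and all 26 interferon gamma response and antigen presentation genes tested were below 0, with medians of -0.71 and -0.74 (all genes, 43.7% below 0). In LEN tumors, described further below, these medians were -0.14 and 0.03. With 1 model left out, the T and NK cell median ran from -0.88 without KLN205 to -0.45 without Hepa 1-6. The interferon median then ran from -1.09 without Renca to -0.52 without BNL. T and NK cell genes were below the median of the other models for 27 of 29 in BNL, 17 of 29 in Renca and all 29 in B16-F10. Interferon genes were above it for 0 of 26 in BNL, 8 in Renca and 5 in B16-F10. The vessel-dense models were not the lowest for T and NK cell genes, however. Their mean level of that list was 1.00 to 1.39, LL/2 was at 0.96 and KLN205 at 0.81, and Hepa 1-6 reached 3.87. Tigit, an inhibitory receptor of T and NK cells, was the 1 of 29 T and NK genes whose model means did not overlap (all genes 0.319%) and passed the minimum TPM only through the other class. It was at 0.49 to 1.17 TPM in the 9 vessel-dense tumors and at 1.25 to 40.6 in the 26 others (difference -1.92 ± 0.63, adjusted p = 0.823). Irf1, a transcription factor of the interferon response, had a difference of -0.92 ± 0.54. The study classed all vessel-dense models as low in its T cell signature, and also 4T1, EMT6, LL/2 and KLN205. The mean level of T and NK cell genes was 1.37 in 4T1 and 1.15 in EMT6. No model is both vessel-dense and high in that signature.

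Macrophage genes separated the vessel-dense models from each other. Of 24 tested, 20 were below 0 (median -0.51), but 14 were among the 3 highest models in Renca and 22 among the 3 lowest in B16-F10. The macrophage median was -0.08 without B16-F10, -1.05 without Renca and -0.0008 within BALB/c hosts. Mertk, a receptor for the clearance of dying cells, was at 2.03 to 3.31 TPM in the vessel-dense tumors, and 3 of the 26 other tumors were below the highest of them. Only the model means of Mertk were apart, at no more than 2.71 against 3.06 in RAG and above (difference -0.81 ± 0.33). All 14 neutrophil genes tested were below 0 (median -0.93), led by Il1b, an inflammatory cytokine, at -1.58 ± 0.46. The neutrophil list leaned on B16-F10, where 12 of 14 were among the 3 lowest models, against 3 in BNL and 5 in Renca, and its median was -0.54 without B16-F10 and -0.31 within BALB/c hosts. The dendritic cell list had 6 of 10 below 0, the B cell and plasma cell list 5 of 5 and the red cell and platelet list 7 of 9, with medians of -0.18, -0.58 and -0.28. Single models went the other way, since Renca was above the median of the others for 9 of 10 dendritic and 5 of 5 B cell and plasma cell genes, and BNL for 6 of 9 red cell and platelet genes. The B cell median was -0.23 without Hepa 1-6.

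Genes of the hypoxia response and of glycolysis were lower in BNL and Renca but not in B16-F10. Of 30 tested, 23 were below 0 with a median of -0.28, which was -0.02 in female hosts alone and -0.09 in day 8 NT tumors, with 17 of 30 below 0. The mean level was 5.22 in Renca and 5.28 in BNL, the lowest of the 12 models, and 6.42 in B16-F10, the highest after Hepa 1-6. Gene by gene, 0 of 30 were above the median of the other models in BNL and 7 in Renca, against 21 in B16-F10. Slc2a1, the glucose transporter of most dividing cells, was at 23.6, 20.4 and 20.3 TPM in BNL, 11.7, 13.7 and 11.8 in Renca and 54.3, 44.4 and 38.0 in B16-F10. Model means of the others ran from 41.9 in 4T1 to 110.8 in LL/2, so BNL and Renca were below all of them and B16-F10 fell inside the range (difference -1.45 ± 0.36, adjusted p = 0.704). Ankrd37, a target of hypoxia-inducible factor, was at 2.22 to 7.51 TPM in the vessel-dense tumors, with 3 of 26 other tumors below the highest of them. Its model means, at most 6.77 in B16-F10, lay below the 7.17 of RAG and those of the rest (difference -1.17 ± 0.34). Egln3, an oxygen-sensing prolyl hydroxylase named after its values were seen, was at 0.18 to 0.34 TPM in Renca, 2.5 to 2.97 in B16-F10 and 8.11 to 9.44 in BNL, against model means from 2.2 in CT26.WT to 115.0 in LL/2, so the classes overlapped.

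The 250 bases before the start of Slc2a1 (chr4:119108495-119108744, plus strand) and Ankrd37 (chr8:45999851-46000100, minus strand; RefSeq, GRCm38.p6) are shown since these hypoxia genes had the smallest p of their list. Capitals mark ACGTG on either strand, the core to which hypoxia-inducible factors bind.

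Slc2a1: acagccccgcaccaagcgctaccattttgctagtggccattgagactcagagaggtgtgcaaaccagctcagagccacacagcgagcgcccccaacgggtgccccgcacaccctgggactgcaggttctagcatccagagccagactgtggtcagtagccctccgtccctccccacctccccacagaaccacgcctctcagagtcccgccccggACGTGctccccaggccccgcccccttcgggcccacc

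Ankrd37: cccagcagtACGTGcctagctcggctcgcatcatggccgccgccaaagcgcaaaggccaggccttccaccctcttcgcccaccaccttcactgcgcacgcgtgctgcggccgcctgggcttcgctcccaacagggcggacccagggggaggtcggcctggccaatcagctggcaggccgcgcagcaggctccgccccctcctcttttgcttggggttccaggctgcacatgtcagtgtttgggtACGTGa

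ACGTG occurred 1 time before Slc2a1 and 2 times before Ankrd37. Of 27 list members matched in RefSeq, 14 held it (51.9%), against 16.6% of all 32851 promoter stretches of this length; a match is a description and not a site shown to be used.

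Ligands that drive vessel growth were not higher in the vessel-dense models. Of 24 angiogenic ligand genes tested, 16 were below 0 (median -0.28), and of 18 angiogenesis inhibitors 11 were (median -0.30). Ligand genes were above the median of the others for 12 of 24 in BNL, 8 in Renca and 6 in B16-F10, and inhibitors for 7, 11 and 7 of 18. Vegfa, the main ligand, was at 43.2, 33.6 and 27.9 TPM in BNL, 71.6, 83.8 and 72.8 in Renca and 76.7, 65.1 and 56.6 in B16-F10, with other model means between 56.7 in LL/2 and 187.4 in EMT6. Only BNL lay below all others (difference -0.76 ± 0.37, exact permutation p = 0.0864). Areg, an epidermal growth factor family ligand, was at 3.43 to 4.63 TPM in BNL and at most 0.32 in Renca and 0.22 in B16-F10, against a median of 7.98 in the others (difference -2.19 ± 0.80). Among the inhibitors Sema3b, a class 3 semaphorin, was at 44.3 to 56.2 TPM in Renca and 29.2 to 31.8 in B16-F10 but at 2.09 to 3.74 in BNL, inside the range of the others (difference 2.16 ± 0.80), and Cxcl9, an interferon-induced chemokine, had -1.39 ± 1.27.

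**Figure D4:**
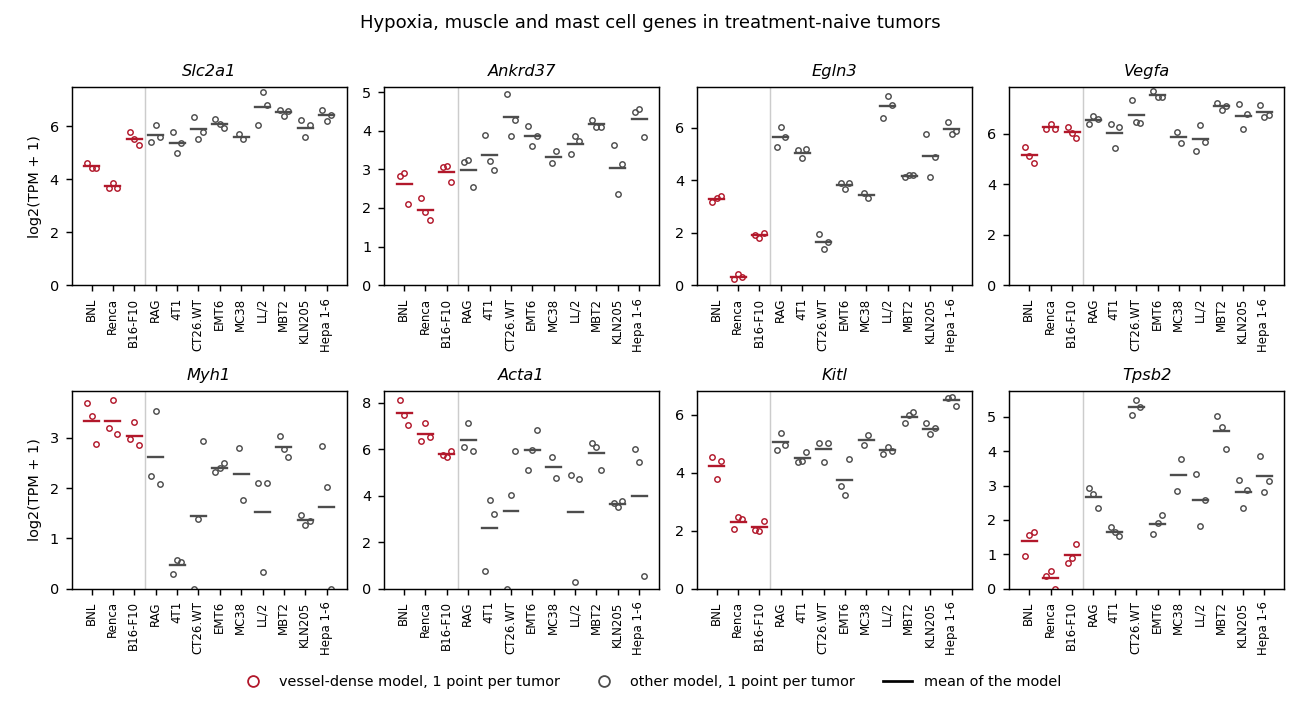
Each panel shows log2(TPM + 1) of 1 hypoxia, muscle or mast cell gene in every treatment-naive tumor, with vessel-dense models in red and a line for the mean of the model. Slc2a1 is lowest in Renca and BNL and within the range of the others in B16-F10, while Tpsb2 is low in all 3.

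Proliferation and respiration genes were above 0 throughout, most of all through B16-F10. All 25 cell cycle genes tested were above 0 with a median of 0.47, and all 24 oxidative phosphorylation genes with a median of 0.39. B16-F10 was among the 3 highest models for 21 of the 25 and for 24 of the 24, whereas BNL was for 3 in each list and Renca for 6 in each. Cell cycle genes were above the median of the other models for 20 of 25 in BNL and 19 in Renca (all genes 47.3% and 59.5%). Oxidative phosphorylation genes were for 16 of 24 in BNL (66.7%) and 13 in Renca (54.2%, under its share of all genes). Leaving out B16-F10 put the medians at 0.26 and 0.077, and within BALB/c hosts, where B16-F10 is absent, they were 0.33 and 0.21. Sdhb, a subunit of succinate dehydrogenase, was at 288.9, 334.3 and 318.7 TPM in B16-F10, at 122.2, 101.9 and 119.8 in Renca and at 50.7, 63.5 and 51.8 in BNL, the last below the 85.1 TPM of MC38 (difference 1.21 ± 0.40). Atp5o, a subunit of ATP synthase, and Mcm2, a subunit of the replication helicase, had differences of 0.79 ± 0.29 and 1.06 ± 0.39, with the same order of the 3 models for both.

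Lineage markers of the tumor cells themselves set single models apart rather than the class. All 10 melanocyte genes tested were above 0 (median 2.68), which came from B16-F10 alone: Dct, an enzyme of melanin synthesis, was at 2272 to 2375 TPM there and at no more than 0.18 in any tumor of the other 11 models. Kidney tubule genes had 6 of 6 above 0 (median 0.91), and their mean level was 4.11 in Renca and 3.51 in RAG. Epithelial genes had 12 of 15 below 0 (median -0.90), with B16-F10 lowest of the 12 and KLN205 highest. Without KLN205 the median was -0.24, and BNL and Renca were each above the median of the others for 9 of 15.

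Day 8 tumors showed whether the same genes separated the same models in other mice. In untreated (NT) tumors 2 genes were called higher (0.0116% of 17273) and 1 lower (0.00579%). Aspg was at 4.30 ± 0.48 TPM in BNL, 7.24 ± 1.95 in Renca and 2.98 ± 0.34 in B16-F10 (SD, n = 3), against at most 0.327 in MC38, with a difference of 2.30 ± 0.25 and an adjusted p of 0.00499. Klhl30, a kelch-like protein named after its values were seen, was at 13.1 ± 1.33 TPM in BNL, 4.44 ± 0.86 in Renca and 10.4 ± 1.95 in B16-F10, and its highest other model mean was 1.99, in CT26.WT (difference 2.69 ± 0.36, adjusted p = 0.0325). Both genes passed the minimum in NT tumors only through the vessel-dense class. In treatment-naive tumors the CT26.WT mean of Klhl30, 3.65 TPM, had been above that of BNL, 3.12. Srgn was at 19.7 ± 2.96 TPM in BNL, 11.8 ± 0.79 in Renca and 10.0 ± 2.92 in B16-F10, with the others between 47.8 and 90.1 (difference -2.26 ± 0.25, adjusted p = 0.00499). Without overlap were 138 genes higher (0.799%) and 112 lower (0.648%). In LEN tumors, compared after the other results were seen, 3 genes were called higher (0.0172% of 17401) and 0 lower, with 1080 and 207 at an unadjusted p under 0.05, and 203 (1.17%) and 17 (0.0977%) did not overlap.

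Of the 95 genes that had lain wholly above in treatment-naive tumors, 89 were tested at day 8 and 29 again did not overlap in that direction (32.6%, against 0.799% of all genes); of the 56 below, 24 of 55 did (43.6%, against 0.648%). The direction held for 87 of 89 and for 55 of 55. These are new mice but the same 12 cell lines, so the repeat bears on the models and not on vessel density in other models. A test of the change in the class difference from treatment-naive to NT tumors called 0 of 16925 genes by limma, with 796 at an unadjusted p under 0.05. Pan-endothelial genes kept a positive median in NT tumors (0.29) and had -0.03 in LEN tumors. The fat and skeletal muscle list had a median of 0.06 in NT tumors and of 1.92 in LEN tumors, so its treatment-naive difference was not repeated in NT tumors, and that of the hypoxia list shrank as given above. Myh1, at 1.40 in treatment-naive tumors, was at -0.06 in NT tumors. The difference of Eng stayed at 1.74 ± 0.43 in NT and 1.93 in LEN tumors, and that of Plxnd1 at 1.65 ± 0.31 and 1.77. In vessel-dense tumors the median of Cdh5 was 17.6 TPM in NT and 3.88 in LEN tumors, and that of Kdr 6.5 and 2.5. For Eng the NT and LEN medians were 73.8 and 67.0, for Plxnd1 94.6 and 95.9, and for Sparcl1 130.7 and 149.3. Which cells carried the RNA of these genes was not tested.

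**Figure D5:**
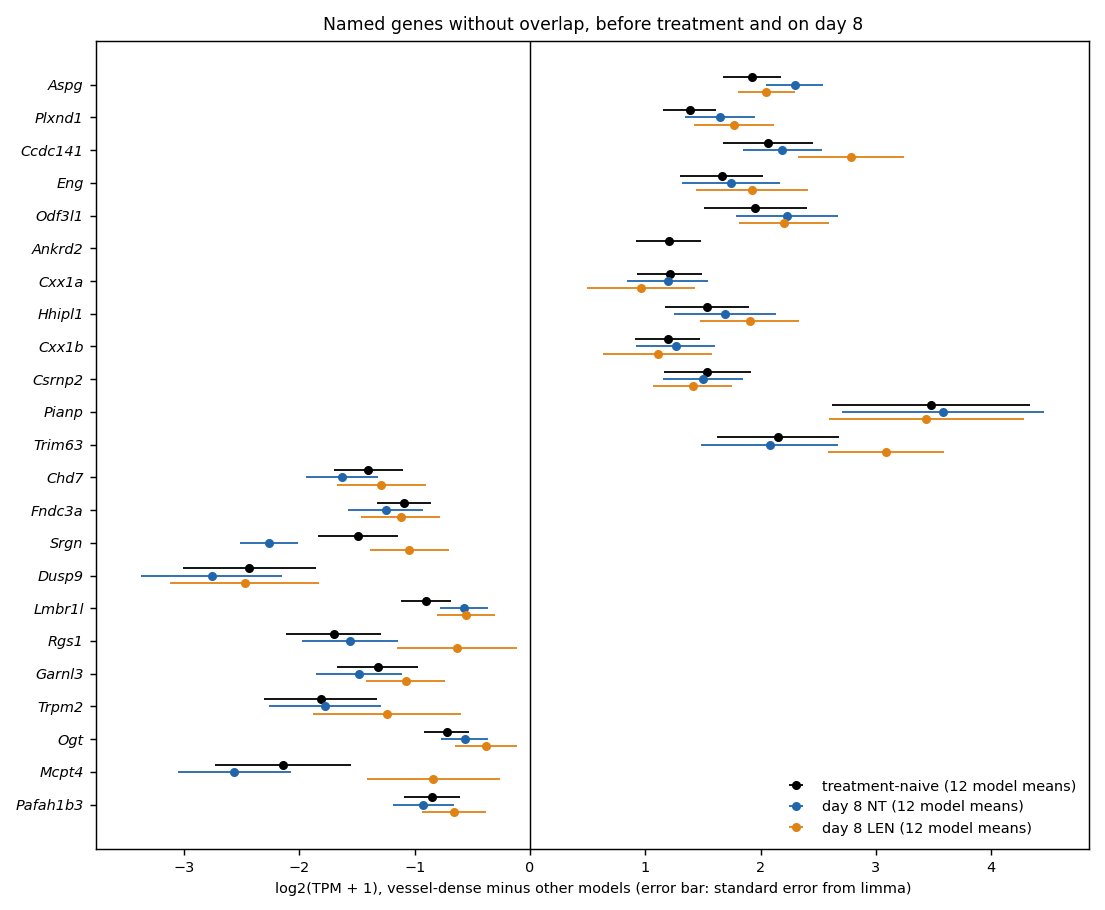
Points give the vessel-dense minus other difference in log2(TPM + 1) of named genes without overlap, with standard errors from limma over 12 model means, in treatment-naive, day 8 NT and day 8 LEN tumors. Each gene keeps its direction in the 3 sets; Ankrd2 was under the minimum mean TPM on day 8.

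Within BALB/c hosts, where strain does not differ, BNL and Renca were compared with RAG, 4T1, CT26.WT and EMT6. No gene was called (0 of 17238 in each direction by limma), 325 higher and 192 lower reached an unadjusted p under 0.05, and 1172 (6.8%) and 599 (3.47%) did not overlap. Fewer models leave more room for genes without overlap. Pan-endothelial genes had a median of 0.69 there, fibroblast and interstitial matrix genes 1.25, hypoxia and glycolysis genes -0.72 and T and NK cell genes -0.31. Other lists lost or turned their sign there: macrophage genes had 12 of 24 above 0, and medians were 0.45 for B and plasma cells, 0.32 for dendritic cells and 0.03 for epithelial genes. In female hosts alone, without BNL and Hepa 1-6, 10 genes were called higher (0.0576%) and 2 lower (0.0115%), which rests on Renca and B16-F10. Aspg had a difference of 2.19 within BALB/c, and Eng and Plxnd1 had 1.42 and 1.33.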

How the data were processed

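RNA-seq of 35 treatment-naive, 36 NT and 36 LEN tumors was analyzed from 1 table. Per the labels and the submitters' processing notes, the authors trimmed reads with Trimmomatic 0.36, mapped them to mm10/GRCm38 with STAR 2.5.2b (annotation Ensembl 88 per the methods) and quantified genes with RSEM 1.2.31. They deposited, as the authors' unit, TPM for 50686 genes. Depth and counting precision are unknown, and 2 sequencing instruments were used without a statement of which tumors ran on which, so a platform effect could not be tested.

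Values were taken as log2(TPM + 1) and averaged per model. Treatment-naive MC38 has 2 tumors and every other group 3. The 3 vessel-dense models were compared with the 9 others by limma 3.58.1 in R 4.3.3 (lmFit, then eBayes with its trend option), keeping genes whose mean TPM was 1 or more. Calls needed a Benjamini-Hochberg adjusted p under 0.05 over all genes kept, and single values were tested by two-sided exact permutation. Nothing in the labels says how far tumors of a model are independent, and models were the units. Other computations used Python 3.11.15, numpy 2.4.6 and pandas 2.3.3. Gene types and positions are from GENCODE M21.

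The members and gene lists were chosen with earlier results of these data known. Genes named are the 6 score genes and Pecam1, the 12 higher and 12 lower protein-coding genes with the smallest p among those without overlap, and from the lists up to 2 members with the smallest p in each direction. Some genes that meet this rule are not reported here. Genes outside it are said to be named after their values were seen. The test was checked on simulated model means with known changes. Alternatives were other pseudocounts, minima and scalings, other tests, tumors instead of model means, host strain and sex, day 8 tumors, and leaving out each model or tumor. The day 8 LEN comparison and the mast cell list were added after seeing the data. Immunohistochemistry was not analysed here.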

Additional observations from a re-analysis of the deposited data

Results flagged for a closer look

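For 60 named genes, the 9 other models were searched for a model mean far from the rest on the log2 scale (gap to the nearest model over the range above 0.493). This happened for 7 genes. The cutoff flags about 1 in 20 independent groups of normally distributed values. These genes were partly chosen by their values in the same models, so that rate is no yardstick here. RAG was far below the others for Cdh5 (3.03, next lowest 3.85) and far above for Odf3l1 (0.34, next 0.154) and Dct (0.125, next 0.0189), the last 2 at levels close to 0. CT26.WT was far above the other vessel-poor models for Pafah1b3 (6.16, next 5.50), Fbln5 (2.55, next 1.45) and Klhl30 (2.21, next 1.04). Hepa 1-6 was far above them for Ccdc141 (3.29, next 2.01), and without Hepa 1-6 the adjusted p of Ccdc141 was 0.0327 in the limma fit, with a difference of 2.25.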

How the results depend on the processing

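With 0 genes called in treatment-naive tumors, the number called depended on the unit and the models. The count of genes higher was 1 with no minimum on TPM, with rescaling over protein-coding genes and with no mean-variance trend (Aspg each time), 10 in female hosts only, 2 in day 8 NT tumors and 3 in day 8 LEN tumors. The count lower was 2 in female hosts only and 1 in day 8 NT tumors. Tumors in place of model means, with the model as a random block, gave 30 higher and 12 lower. Leaving out 1 model or tumor gave 0 to 6 higher and 0 to 2 lower, both highest without BNL. Those 30 and 12 became 14 and 6 with the replicate number as a replicate block, but tumors with the same number did not deviate together (median correlation 0.00509 over 187 pairs, 0.00118 over 374 pairs with other numbers), so they share only a number.

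Genes without overlap numbered 95 higher and 56 lower, and 147 and 91 with no minimum, 51 and 35 with a minimum of 5, 62 and 86 with upper-quartile rescaling, 1172 and 599 in BALB/c hosts, and 954 and 302 in female hosts, where fewer models leave more room. On day 8 they were 112 lower in NT tumors, and 203 and 17 in LEN tumors. Leaving out 1 model or tumor gave 87 to 759 higher, with the most without BNL, and 42 to 328 lower, with the most without Renca.

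List medians moved by more than the spread of model means as follows. A minimum of 5 put the score genes at 1.27 and the lymphatic list at -0.73. BALB/c hosts alone put fibroblast genes at 1.25, hypoxia genes at -0.72 and melanocyte genes at -0.12. NT tumors put muscle genes at 0.058, LEN tumors put pan-endothelial genes at -0.032, hypoxia genes at 0.13 and mast cell genes at -0.77, and a pseudocount of 0.1 put mast cell genes at -2.88. Leaving out 1 model or tumor gave 0.59 to 1.25 for the score genes, -0.11 to 0.69 for arterial, -0.68 to -0.013 for hypoxia, -0.60 to 1.72 for kidney tubule and -0.055 to 4.03 for melanocyte genes. These ends came without B16-F10 or Renca, except that the hypoxia median nearest 0 came without BNL. Rescaling by the upper quartile or over protein-coding genes moved the median of all genes from 0.05 to -0.02 and -0.01.

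Of 60 named genes 46 had a value in every setting, the other 14 falling under the minimum TPM in some (Aspg most often), and 55 kept their direction wherever they were run. The exceptions were Cdh5 (-0.25) and Kdr (-0.055) in LEN tumors, Myh1 (-0.065) and Acta1 (-0.18) in NT tumors, and Pecam1, at -0.026 in female hosts, -0.22 in LEN tumors and -0.10 to 0.62 when 1 model or tumor was left out. The causes were not tested. Depth is unknown, and 3 models limit every comparison.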

Other observations

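In LEN tumors of the same models, compared after the other results were seen, 3 genes were called higher in the vessel-dense models and 0 lower by limma, with 1080 and 207 at an unadjusted p under 0.05. They were Aspg (2.05, adjusted p = 0.0228), Sytl2, a synaptotagmin-like protein of vesicle transport (3.61, adjusted p = 0.0228), and the microRNA gene Mir6418 (1.56, adjusted p = 0.0228). Mir6418 was listed at 0 in all 27 other tumors and above 0 in 3 of the 9 vessel-dense tumors, 1 in each model. Aspg and Mir6418 passed the minimum mean TPM of 1 in LEN tumors only through the vessel-dense class. Of the genes that had lain wholly above in treatment-naive tumors, 23 of 88 did so again in LEN tumors (26.1%, against 1.17% of all genes), and of those below, 3 of 55 did (5.45%, against 0.0977%).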
